A study of Saccharomyces cerevisiae with 8 samples.

Results

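The response of mub1 cells to the cell wall dye Calcofluor white (CFW) was measured by RNA sequencing of the budding yeast Saccharomyces cerevisiae. It is the comparison of 2 libraries from a mub1 deletion strain after 5 hours with 20 µg/ml CFW in chemically defined medium against 2 libraries from the same strain without CFW, so it takes 4 of the 8 libraries of the study, and it was read across 5954 tested genes. The other 4 libraries, labelled as wild type of strain BMA41, came from the same pair of media and are used here for the spread between replicates and for setting the responses side by side. The mub1 strain is labelled as a BMA41 derivative, and cells of all 4 groups were in exponential phase. The labels do not say whether replicates came from separate cultures, so p-values measure the spread between these libraries, which may be technical.

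CFW binds chitin in the growing cell wall and disturbs the assembly of its glucan and chitin. In yeast such stress is sensed at the surface and passed through protein kinase C and the MAP kinase Slt2 to the transcription factor Rlm1, which raises genes of wall synthesis and repair, the cell wall integrity pathway. Mub1 is an adaptor of the ubiquitin ligase Ubr2, which with the conjugating enzyme Rad6 marks the proteasome gene activator Rpn4 for degradation.

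The 8 libraries held 24147195 to 31677985 counts, and the lowest and the highest total were both from mub1 libraries. MUB1 (YMR100W, chrXIII:466300-468162, build R64) was at 1, 0, 0 and 1 counts in the 4 mub1 libraries and 1042 to 1226 counts in the wild-type ones, so the deletion label held in both media. The mub1 libraries also carried LEU2, URA3 and MET17 transcripts (2621 to 7122 counts against 0 to 2) and lacked TRP1 (0 counts against 909 to 989). ADE2 was at 163 to 177 CPM in the wild type and 46.0 to 54.8 CPM in mub1. HIS3 was at 63.0 to 78.8 CPM in the wild type and 24.6 to 40.2 CPM in mub1. Although both strains are labelled as BMA41, these counts are not those of strains that differ in MUB1 alone. How far they differ beyond these genes, and which strain departs from its label, is not settled by the labels. The libraries called wild type here may not be those of the parent of the mub1 strain, which was not tested. A difference between genotypes therefore cannot be told apart from a difference between strains. Both media of mub1 carry the same marker genes, although their levels were not all alike, with MET17 at 109 and 103 CPM without CFW and 162 and 143 with it. Among the mub1 libraries alone the first principal component took 68.4% of the variance of log2 CPM (the count of a gene divided by the total of its library and scaled to 1000000) and parted the media. The wild-type replicates with CFW differed from each other most, with a chi-square per degree of freedom of 74.6 against 27.8 and 29.1 for the mub1 pairs without and with CFW.

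In mub1, CFW changed 1652 of the 5954 tested genes, which is 27.7%, by edgeR's quasi-likelihood test at a Benjamini-Hochberg adjusted p under 0.05. Of these genes 819 (13.8%) rose and 833 (14.0%) fell, where in the wild type 10.3% of the tested genes rose and 8.70% fell (19.0% in all). In mub1 most changes were small: 41 rose and 31 fell at least 2-fold, against 107 and 16 in the wild type. Scaled by upper quartiles, 1007 genes rose and 686 fell, and by library totals alone 1001 and 695. The median log2 change over all tested genes was 0.00, and it moved by at most 0.04 under any scaling. The number of calls rested on all 4 mub1 libraries: it was 531 and 905 without replicates 1 and 2 of the medium without CFW, and 570 and 678 without replicates 1 and 2 of the medium with CFW. It was 2536 and 2541 without wild-type replicates 1 and 2 with CFW, the pair that differed most from each other. Where 4 list counts or medians are given below "without single mub1 libraries", they follow that order of the mub1 libraries. Those fits leave 1 library in a group and call fewer genes in all. A lower list count there does not by itself set a list apart from other genes. Counts of list members below are to be read against the 13.8% of all tested genes that rose in mub1 and the 14.0% that fell. Those of the wild type are to be read against the 10.3% that rose there and the 8.70% that fell.

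Among called genes of at least 10 CPM, the strongest fall in mub1 was in YOR387C (chrXV:1069621-1070241), a gene of unknown function that is listed among genes induced when zinc is scarce. It was at 252 and 163 CPM without CFW and at 8.87 and 9.28 CPM with CFW, a log2 change of -4.54 ± 0.19 (SE, n = 2 libraries per group, adjusted p = 2.37e-06). Both CFW libraries lay far below both others, and the 4 wild-type libraries, at 4.97 to 6.93 CPM, were low in either medium. The next 4 falls by size were all genes of biotin supply. VHT1, the plasma membrane biotin importer, was at 195 and 192 CPM without CFW and at 37.5 and 35.8 with it (-2.43 ± 0.08, adjusted p = 7.8e-07). BIO4, dethiobiotin synthetase, went from 104 and 120 to 22.4 and 22.0 CPM (-2.37 ± 0.12). BIO3, the aminotransferase of the step before it and its divergent neighbour on chromosome XIV, went from 108 and 125 to 23.4 and 23.9 CPM (-2.33 ± 0.16). BIO2, biotin synthase, which makes the last step, went from 490 and 448 to 136 and 138 CPM (-1.80 ± 0.16). The media did not overlap in these genes, as the rule that named them required, and both CFW libraries lay lower for 30.8% of all tested genes. Replicates with CFW lay close together. BIO5, the importer of a biotin precursor and the remaining gene of the set, was named after its values were seen. It went from 60.3 and 70.5 to 33.3 and 33.7 CPM (-0.995 ± 0.11, adjusted p = 0.000719).

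The wild type did not share this pattern. Its BIO4 level was 12.1 and 12.2 CPM without CFW and 18.3 and 23.2 with it, and its VHT1 level was 18.1 to 24.3 CPM throughout. BIO3, BIO4 and BIO5 rose there, by 0.73 ± 0.17, 0.73 ± 0.13 and 0.60 ± 0.11 on the log2 scale, and BIO2 fell by 0.54 ± 0.16. The difference between the responses (mub1 minus wild type) was -2.65 ± 0.12 for VHT1 (adjusted p = 9.52e-06), -3.10 ± 0.17 for BIO4 (adjusted p = 3.82e-05) and -4.93 ± 0.28 for YOR387C (adjusted p = 4.47e-05), and each of these 3 passed under every alternative run. With CFW the levels of these 3 genes in mub1 were nearer to the wild-type levels than without CFW.

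Stretches upstream of these genes are shown because they hold the only matches to the Vhr1 motif among the biotin genes. Vhr1 is the activator of VHT1 and BIO5 when biotin is low. The motif searched was AATCA, 8 letters of any kind, TGA, any letter and T, on both strands, within 500 bases before the coding start, and capitals mark the match. It was found before 37 of 5844 genes (0.633%), 7 of the 816 genes that fell in mub1 (0.858%) and 4 of the 817 that rose (0.49%). The sequences are from the R64 genome, written 5′ to 3′ on the gene's strand, and both genes lie on the minus strand, VHT1 at chrVII:620059-620158 and BIO5 at chrXIV:733524-733623. The BIO5 stretch lies inside the coding region of its neighbour BIO4 (chrXIV:733356-734069).
VHT1: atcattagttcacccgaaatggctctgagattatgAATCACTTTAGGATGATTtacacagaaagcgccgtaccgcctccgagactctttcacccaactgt
BIO5: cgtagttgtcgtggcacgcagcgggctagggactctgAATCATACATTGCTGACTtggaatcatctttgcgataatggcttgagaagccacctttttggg

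**Figure D1:**
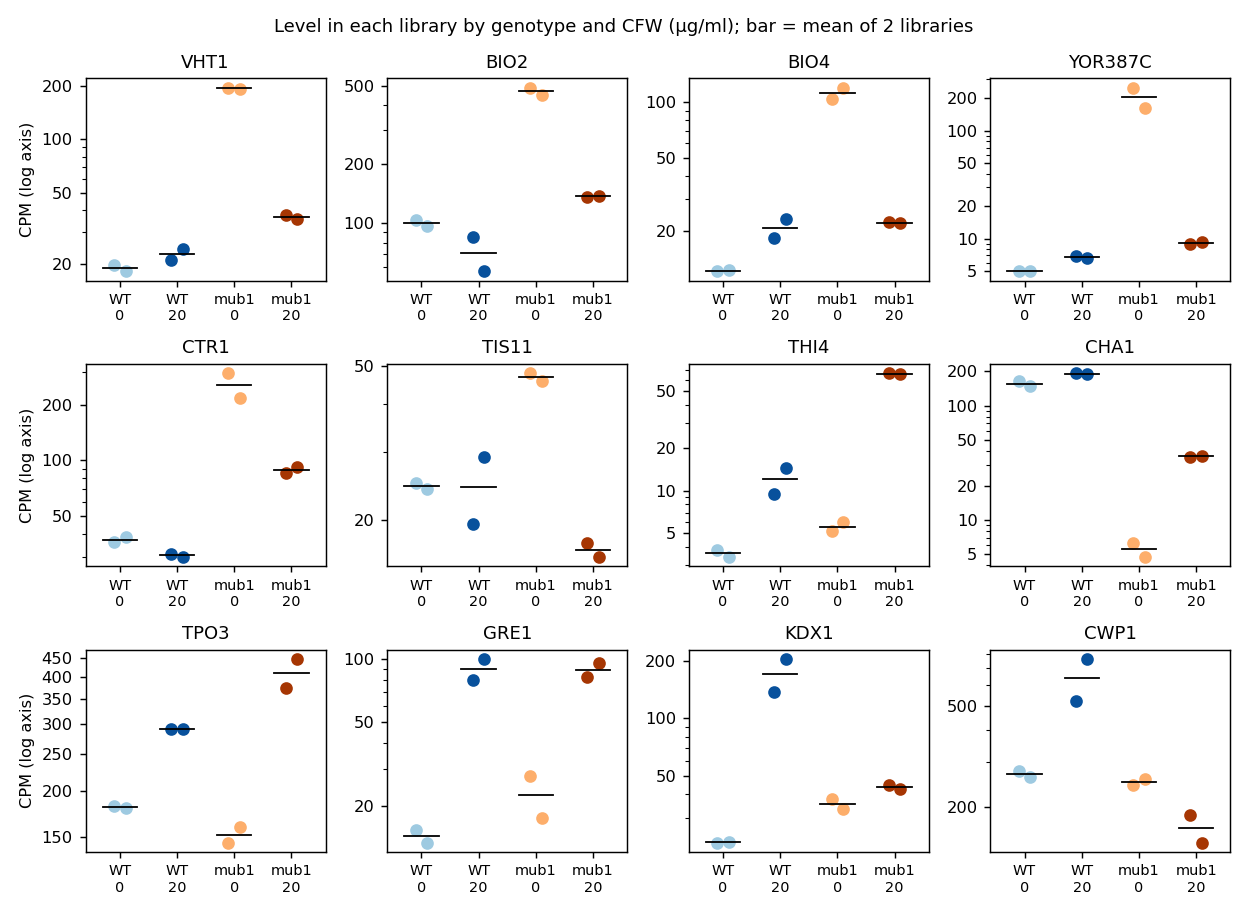
Level of 12 genes in each library, in CPM on log axes that differ between panels, by genotype and CFW (0 or 20 µg/ml); dots are libraries and bars are means of 2. VHT1, BIO2, BIO4, YOR387C, CTR1 and TIS11 are highest in mub1 without CFW, whereas KDX1 is at 137 and 205 CPM in the wild type with CFW and at 33.7 to 45.0 CPM in mub1 in either medium.

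Genes of metal supply were among the falls too. CTR1, the high-affinity copper importer, was at 296 and 216 CPM without CFW and at 85.4 and 92.4 with it (-1.55 ± 0.13, adjusted p = 0.000225). TIS11, which degrades messages of iron-using proteins when iron is scarce, went from 48.0 and 45.8 to 17.5 and 16.1 CPM (-1.51 ± 0.15, adjusted p = 0.000556). Their changes in the wild type were -0.32 ± 0.13 and -0.05 ± 0.15, neither past the test. Their responses differed between genotypes, by -1.23 ± 0.18 and -1.46 ± 0.22, each with an adjusted p of 0.0167. Both differences were lost without either wild-type library without CFW or either mub1 library with CFW, and that of TIS11 also without mub1 replicate 1 without CFW (adjusted p = 0.0561 to 0.109). The 31 tested genes of the iron regulon had a median log2 change of -0.18 in mub1, against 0.00 over all tested genes. Of these 31, 13 fell (41.9%, against 14.0% of all tested genes) and 0 rose. They included the cell wall mannoproteins FIT2 (-1.10 ± 0.13) and FIT3 (-0.78 ± 0.11), the ferroxidase FET3 (-1.10 ± 0.20) and its permease partner FTR1 (-0.75 ± 0.12). The iron genes that fell numbered 6, 8, 8 and 8 without single mub1 libraries, and in the wild type 7 fell and 3 rose. Among 8 tested copper genes 3 fell in mub1 (37.5%) and 0 rose. Those 3 were CTR1, the vacuolar copper exporter CTR2 and COX17, a copper chaperone of the respiratory chain. The count of copper genes was 2 without mub1 replicate 1 without CFW or replicate 2 with CFW, and 3 without either of the others.

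The stretch before TIS11 is shown because the members of the iron list share the core of the Aft1 site, TGCACCC, on either strand. Aft1 is the activator of the iron regulon. This core was found within 500 bases of 139 of 5844 genes (2.38%) and of 22 of 31 iron genes (71.0%) and of 3.06% of the genes that fell in mub1. The list was drawn up from known Aft1 targets. TIS11 holds 2 matches, the second on the other strand, at chrXII:416809-416918 on the minus strand.
TIS11: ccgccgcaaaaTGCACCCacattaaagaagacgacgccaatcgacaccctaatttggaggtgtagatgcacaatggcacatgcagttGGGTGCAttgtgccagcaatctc

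In the zinc regulon, controlled by the activator Zap1, 5 of 20 tested genes fell in mub1 (25%, against 14.0% of all tested genes) and 3 rose (15%, against 13.8%), with a median of -0.18. Besides YOR387C the falls were in its relative VEL1 (-1.01 ± 0.16), the mannosyltransferase MNT2 (-0.73 ± 0.10), the peroxiredoxin TSA1 (-0.55 ± 0.10) and the lipid phosphatase DPP1 (-0.45 ± 0.07). The largest difference in level of the list was in a gene that did not pass. ADH4, an alcohol dehydrogenase that is high when zinc is scarce, was at 5190 and 4854 CPM without CFW and at 124 and 901 CPM with CFW (-3.32 ± 0.95, adjusted p = 0.0622). ZPS1, a secreted protein of zinc-starved cells, was at 1808 and 1297 against 103 and 337 CPM (-2.84 ± 1.04, adjusted p = 0.116). In both genes the CFW libraries lay below the others but far apart from each other, with replicate 1 the lower. ADH4 passed without either CFW library (adjusted p = 0.000191 without replicate 1 and 7.05e-06 without replicate 2), with DESeq2 (0.000196) and among genes of at least 10 CPM (0.0475). ZRT1, the high-affinity zinc importer, had groups that overlapped (1329 and 1020 against 642 and 1148 CPM). ADH4, ZPS1 and ZRT1 were named after their values were seen. Without single mub1 libraries 4, 6, 6 and 6 zinc genes fell and 0, 1, 1 and 1 rose.

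The other genes among the largest falls share no list. REG2, a regulatory subunit of protein phosphatase 1 (-1.27 ± 0.23), the cytosolic aldehyde dehydrogenase gene ALD6 (-1.13 ± 0.10), the kinase gene PRR2 (-1.17 ± 0.13) and YMR206W (-1.12 ± 0.17) fell in mub1. PDR15, an exporter of the multidrug resistance family, was at 266 and 247 CPM without CFW and at 112 and 107 with it. It fell in both genotypes (-1.26 ± 0.10 in mub1 and -1.37 ± 0.10 in the wild type). The difference between these responses was 0.11 ± 0.14.

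The strongest increase in mub1 was in THI4, a thiazole synthase of thiamine synthesis (chrVII:780399-781379). It was at 5.18 and 5.97 CPM without CFW and at 66.6 and 65.3 with it, a log2 change of 3.53 ± 0.18 (adjusted p = 7.34e-06), and the media were far apart. The wild type rose less, from 3.84 and 3.42 to 9.49 and 14.4 CPM (1.67 ± 0.20), and the difference of the responses was 1.86 ± 0.27 (adjusted p = 0.0154). That difference was no longer called when either wild-type library without CFW was left out (adjusted p = 0.111 and 0.0962), without mub1 replicate 1 without CFW (0.0808) and without mub1 replicates 1 and 2 with CFW (0.0561 and 0.0806). The other genes of thiamine synthesis and uptake did not follow it in size. Of the 27 tested genes of the thiamine and biotin list, 4 rose in mub1 (THI4, THI22, THI21 and PHO3, the last 3 by 0.44 to 0.575) and 5 fell, which were the biotin genes above. The shares in mub1, 14.8% and 18.5%, lay near the 13.8% and 14.0% of all tested genes. For the wild type the counts were 11 and 1. The count that rose in mub1 was 1, 2, 2 and 1 without single mub1 libraries.

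CHA1, the catabolic serine and threonine deaminase, was at 6.29 and 4.74 CPM in mub1 without CFW and at 35.5 and 36.5 with CFW (2.68 ± 0.12, adjusted p = 2.37e-06). All 4 of these values lay below the wild-type levels, which were 149 to 192 CPM with a change that did not pass the test (0.25 ± 0.09). The responses differed by 2.43 ± 0.15 (adjusted p = 4.64e-05). GRE1 and SIP18, a pair of hydrophilin genes of osmotic and drying stress, rose in mub1 by 1.96 ± 0.19 and 1.65 ± 0.28. GRE1 went from 27.8 and 17.4 to 82.5 and 95.4 CPM. Both also rose in the wild type, by 2.61 ± 0.20 and 2.44 ± 0.30. SMP1, a transcription factor of the same MADS-box family as Rlm1, went from 38.5 and 36.6 to 96.3 and 121 CPM (1.504 ± 0.12, adjusted p = 0.000228). It rose in the wild type as well (1.17 ± 0.13). HUG1, an inhibitor of ribonucleotide reductase that is induced by DNA damage, rose by 1.49 ± 0.15 in mub1 and 1.18 ± 0.15 in the wild type.

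TDA6, a gene of unknown function, went from 10.97 and 17.4 to 54.1 and 91.6 CPM (2.33 ± 0.27), and lost its call when only the mub1 libraries were fitted (adjusted p = 0.0736). YDR222W (1.59 ± 0.31) lost it in the same fit (0.16) and without wild-type replicates 1 and 2 with CFW (0.0733 and 0.0715). YRO2, a membrane protein related to the heat shock protein Hsp30, was at 561 and 1162 against 1993 and 2466 CPM (1.34 ± 0.31). Its adjusted p of 0.0143 rose to 0.0512 without mub1 replicate 1 without CFW, to 0.0793 without mub1 replicate 2 with CFW, to 0.114 and 0.111 without the wild-type CFW replicates and to 0.2 with only the mub1 libraries. YDL218W, of unknown function, rose by 1.43 ± 0.17 and kept its call in every alternative.

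Several genes of membrane exporters rose. Of 28 tested drug exporters and their regulators, 11 rose (39.3%) and 2 fell (7.14%) in mub1, against 13.8% and 14.0% of all tested genes. The log2 changes ran from -1.26 to 1.44 with a median of 0.22. In the wild type 5 of the list rose and 4 fell. TPO3 and TPO2, which export polyamines, led the list. TPO3 went from 145 and 160 to 376 and 449 CPM (1.41 ± 0.10) and TPO2 from 106 and 135 to 293 and 373 CPM (1.44 ± 0.14). Of the 50-base words of TPO3 40.8% occur more than once in the genome, and of those of TPO2 41.3%. How reads shared between them were counted is not given in the sources used here. TPO1 (1.19 ± 0.14), another polyamine exporter, named after its values were seen, and PDR12, the exporter of weak organic acids (65.1 and 86.2 against 174 and 181 CPM, 1.20 ± 0.13), rose too. The PDR12 response differed from that of the wild type (0.14 ± 0.13), by 1.06 ± 0.18 (adjusted p = 0.024). That call was lost without either wild-type library without CFW (adjusted p = 0.12 and 0.123), mub1 replicate 1 without CFW (0.062) or mub1 replicates 1 and 2 with CFW (0.0726 and 0.119). QDR2, an exporter of drugs and cations, rose by 0.89 ± 0.09, from 14.5 and 15.5 to 30.1 and 26.9 CPM. Its wild-type level was 176 to 221 CPM. PDR5, the main drug exporter, was at 127 and 132 against 198 and 146 CPM (0.38 ± 0.12, adjusted p = 0.0473), and its call was lost under 8 of the alternatives. Those were the replicate block, the fit of the mub1 libraries alone and the fits without wild-type replicate 1 or 2 without CFW, wild-type replicate 2 with CFW, mub1 replicate 1 or 2 without CFW, or mub1 replicate 1 with CFW (adjusted p = 0.0503 to 0.382). The regulator genes PDR1 (0.23 ± 0.09), PDR3 (0.21 ± 0.11), YAP1 (0.20 ± 0.08) and CUP9 (0.02 ± 0.10) did not pass. The list count that rose was 7, 10, 7 and 7 without single mub1 libraries.

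Most targets of the cell wall integrity pathway had a smaller response in mub1 than in the wild type. Of 27 tested Rlm1 targets, 10 rose (37.0%, against 13.8% of all tested genes) and 1 fell, and both CFW libraries lay above both others for 22 of them (81.5%, against 40.2% of all tested genes). Their median log2 change was 0.28 against 0.00 over all tested genes. In the wild type 25 rose and 1 fell, and the median was 1.14. The response was smaller in mub1 than in the wild type for 25 of the 27, and the difference itself passed the test for 8 of them, all lower in mub1, against 1.61% of all tested genes called lower and 2.50% called in either direction. The targets with a difference past the test were KDX1, CRH1, YNL058C, GFA1, SLT2, CWP1, CHS3 and DFG5. The count that rose was 5, 6, 5 and 7 without single mub1 libraries, and it was 16 without either wild-type library with CFW and 16 with only the mub1 libraries. This list was drawn up with the wild-type response known, so its direction there is no independent evidence. The difference subtracts that response, so the 25 smaller responses in mub1 and the 8 calls are not independent evidence either.

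KDX1, a pseudokinase relative of Slt2 and one of the strongest known Rlm1 targets, was at 38.02 and 33.7 CPM in mub1 without CFW and at 45.0 and 42.7 with it (0.26 ± 0.15, adjusted p = 0.229). Its wild-type level went from 22.4 and 22.5 to 137 and 205 CPM (2.88 ± 0.16). The difference between the responses was -2.62 ± 0.22 (adjusted p = 0.000622) and passed in every alternative. The KDX1 change in mub1 itself passed without wild-type replicate 1 or 2 with CFW (adjusted p = 0.0109 and 0.0166) and with only the mub1 libraries (0.0221), at about the same size.

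CWP1, a mannoprotein of the outer wall, went the opposite way in mub1. It was at 243 and 257 CPM without CFW and at 186 and 145 with it (-0.63 ± 0.16, adjusted p = 0.0219), with no overlap. In the wild type it rose from 277 and 263 to 521 and 763 CPM (1.21 ± 0.17), and the responses differed by -1.83 ± 0.23 (adjusted p = 0.00935). The fall in mub1 was not called without mub1 replicate 1 or 2 without CFW or replicate 2 with CFW (adjusted p = 0.0798, 0.0988 and 0.15). The difference was not called without wild-type replicate 1 or 2 without CFW (0.0792 and 0.0839) or mub1 replicate 2 with CFW (0.0657).

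The kinase gene SLT2 itself rose in mub1 by 0.42 ± 0.11 (184 and 200 against 264 and 258 CPM, adjusted p = 0.024) and in the wild type by 1.24 ± 0.11. The mub1 call was lost without any single mub1 library (adjusted p = 0.168, 0.0606, 0.123 and 0.0953). CHS3, the catalytic subunit of the main chitin synthase, rose by 0.34 ± 0.10 against 1.15 ± 0.10 in the wild type, and CRH1, which links chitin to glucan, by 0.73 ± 0.16 against 2.02 ± 0.17. CRH1 lost its mub1 call without either mub1 library without CFW (0.0774 and 0.0628) or replicate 1 with CFW (0.0833), and CHS3 without those (0.195, 0.0732 and 0.242) or wild-type replicate 1 or 2 without CFW (0.061 and 0.06). GFA1, the first enzyme of chitin precursor synthesis, was at 344 and 344 against 379 and 344 CPM (0.04 ± 0.12). The calls of a difference for SLT2, CRH1 and DFG5 were lost without any single library other than the wild-type ones with CFW, and that for CHS3 without those except mub1 replicate 1 with CFW. That of DFG5 was lost as well with upper-quartile scaling, with library totals alone, with no filter and among genes of at least 10 CPM. Those for GFA1 and YNL058C were lost without wild-type replicate 1 or 2 without CFW or mub1 replicate 2 with CFW, and that for YNL058C also without mub1 replicate 1 without CFW. The adjusted p of the calls lost without single libraries ran from 0.0674 to 0.212.

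A few targets rose in mub1 with a size that the alternatives did not undo. PRM5, a membrane protein, went from 66.8 and 67.7 to 137 and 142 CPM (1.03 ± 0.10). NCW2, a wall protein named after its values were seen, rose by 1.07 ± 0.20, and PUN1, a plasma membrane protein, by 0.77 ± 0.13. FKS1, the main glucan synthase subunit, rose in both genotypes (0.59 ± 0.10 and 0.64 ± 0.10, with a difference of -0.05 ± 0.13). GSC2, its stress-induced counterpart, was at 452 and 428 against 470 and 467 CPM in mub1 (0.06 ± 0.21, adjusted p = 0.86). PIR3, a wall protein, was at 278 and 284 against 589 and 519 CPM (0.95 ± 0.33, adjusted p = 0.0676), and PST1, another, at 427 and 473 against 646 and 713 CPM (0.57 ± 0.19, adjusted p = 0.052). Neither overlapped between the media. Both passed without either wild-type library with CFW, which spread widely for PIR3 (558 and 1305 CPM), and PIR3 then had an adjusted p of 1.35e-06 and 2.28e-06. The transcript of RLM1 was at 153 and 138 against 146 and 147 CPM in mub1 (-0.02 ± 0.11), and that of SWI4, the other transcription factor below Slt2, at 48.7 and 46.0 against 42.2 and 38.3 CPM (-0.26 ± 0.09, adjusted p = 0.0536).

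**Figure D2:**
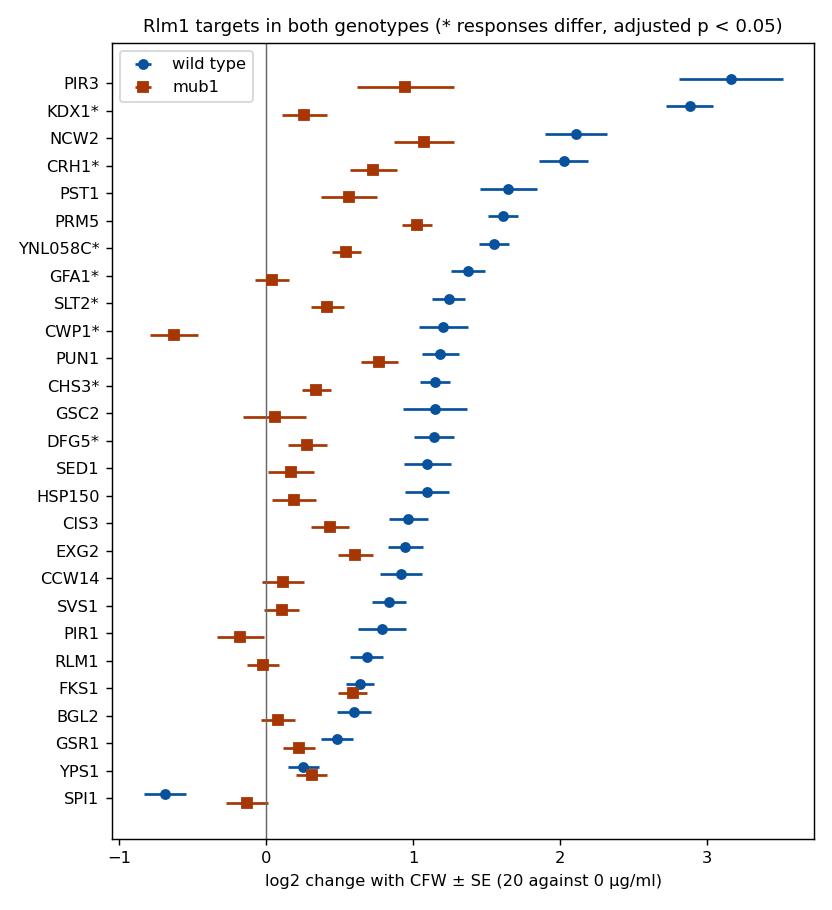
Log2 change with CFW (20 against 0 µg/ml) of the 27 tested Rlm1 targets in the wild type (circles) and in mub1 (squares), with bars of 1 SE; an asterisk marks the 8 whose responses differ at an adjusted p under 0.05. KDX1 is at 2.88 in the wild type and 0.26 in mub1, and CWP1 at 1.21 and -0.63.

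The stretches that hold the Rlm1 site before 4 of these targets are shown as examples. Among these 4 only CWP1 passed the test in mub1. The motif searched was CTA, 4 letters of any kind and TAG, which reads the same on both strands, and it was found within 500 bases of 542 of 5844 genes (9.27%) and of 9 of 27 Rlm1 targets (33.3%). It was found before 8.45% of the genes that rose in mub1 and 8.09% of those that fell. The match before PST1 and that before CWP1 are the same 10 letters, and with CFW in mub1 CWP1 fell whereas PST1 was at 0.57 ± 0.19, short of the test. Capitals mark the match, and each stretch is written on the gene's strand: PIR3 at chrXI:144101-144150, PST1 at chrIV:563202-563251 and CWP1 at chrXI:260726-260775 on the plus strand, and RLM1 at chrXVI:381429-381478 on the minus strand.
PIR3: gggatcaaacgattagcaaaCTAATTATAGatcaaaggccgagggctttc
PST1: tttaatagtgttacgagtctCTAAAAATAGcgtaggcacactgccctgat
CWP1: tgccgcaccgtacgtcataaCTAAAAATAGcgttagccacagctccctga
RLM1: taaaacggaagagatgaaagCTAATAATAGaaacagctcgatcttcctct

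The other wall lists gave small counts in mub1, to be read against 13.8% of all tested genes that rose and 14.0% that fell. Among 30 genes of integrity signalling 3 rose and 0 fell (13 and 1 in the wild type), and those 3 were SLT2, its upstream kinase gene MKK1 (0.35 ± 0.08) and ZEO1 (0.37 ± 0.11). Of 21 genes of chitin synthesis and crosslinking 6 rose and 3 fell, with CHS1, the septum repair synthase, highest (518 and 467 against 848 and 863 CPM, 0.77 ± 0.10). It rose by 0.60 ± 0.10 in the wild type, and its responses differed by 0.16 ± 0.14. Of 32 genes of beta-glucan synthesis and remodelling 6 rose (18.8%) and 1 fell, the fall being SCW11, a glucanase of daughter cell separation (-0.52 ± 0.08). SCW10 (0.52 ± 0.09) and GAS2 (0.67 ± 0.12) rose. EXG1, the main secreted glucanase, rose by 0.56 ± 0.10 in mub1 and 2.13 ± 0.11 in the wild type, a difference of -1.57 ± 0.15 (adjusted p = 0.00134) that passed in every alternative; it was named after its values were seen, and its mub1 call was lost without mub1 replicate 1 without CFW (0.0589). Of 38 mannoproteins and yapsins 8 rose (21.1%) and 4 fell (10.5%), with the aspartyl protease gene YPS3 (98.4 and 101 against 218 and 237 CPM, 1.16 ± 0.13) and the mannoprotein TIP1 (0.92 ± 0.16) highest. Without single mub1 libraries the genes that rose numbered 0, 1, 0 and 0 in signalling, 1, 3, 2 and 5 in chitin, 3, 6, 5 and 5 in beta-glucan and 3, 5, 3 and 5 in mannoproteins. Without wild-type replicates 1 and 2 with CFW they were 7 and 7, 8 and 8, 10 and 10, and 13 and 13.

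Genes of ribosome production rose broadly and by small amounts. Of 88 tested ribosome biogenesis genes, 48 rose and 0 fell in mub1, with a median log2 change of 0.46 against 0.00 over all genes. Wild-type cells showed 7 that rose and 1 that fell, and a median of 0.07. CFW libraries lay above both others for 87 of the 88, against 40.2% of all tested genes. UTP20, of the small-subunit processome, went from 51.9 and 45.2 to 91.3 and 74.6 CPM (0.74 ± 0.13), and UTP7, of the same complex, from 63.1 and 55.6 to 95.4 and 88.3 CPM (0.60 ± 0.09). CBF5, the pseudouridine synthase of ribosomal RNA (0.66 ± 0.11), and RRN3, the initiation factor of RNA polymerase I (0.64 ± 0.10), rose as well. Of 137 cytosolic ribosomal proteins 39 rose and 0 fell, with a median of 0.29, and those of smallest p included RPL38 (0.66 ± 0.11), the stalk protein RPP0 (0.61 ± 0.10) and RPS22B (0.57 ± 0.10). In wild-type cells 2 rose and 1 fell. No gene of either list had a difference between genotypes past the test, although the difference was positive for 79 of 88 and 133 of 137. The median differences were 0.42 and 0.28. Of simulated differences of 0.5, 30% were recovered, in genes drawn at random and with the same spread in every group. The real groups differed in spread, so that share need not hold for these lists.

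Both ribosome counts rested on every mub1 library, as the number of calls over all tested genes did. Without single mub1 libraries the median log2 change of the biogenesis genes was 0.48, 0.42, 0.39 and 0.51. That of the ribosomal protein genes was 0.25, 0.33, 0.25 and 0.34. Without single wild-type libraries the medians were 0.46 for biogenesis and 0.28 to 0.29 for ribosomal protein genes. Many ribosomal protein genes are near-identical pairs, and the sources used here do not say how reads with several alignments were counted, so the single members are uncertain.

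The promoter motifs known from ribosome biogenesis genes were more frequent among the genes that rose. Those genes include the risen members of the biogenesis list, so these shares are not separate from the counts above. The PAC element, GCGATGAG on either strand, was found within 500 bases of 4.91% of all genes, of 12.1% of those that rose in mub1 and of 2.82% of those that fell, and of 54.5% of the biogenesis list. The RRPE element, AAAAATTTT on either strand, was found before 9.62% of all genes, 19.5% of those that rose, 5.27% of those that fell and 71.6% of the biogenesis list. The letters of the 2 elements do not overlap, and these shares are descriptions without a test. UTP7 is shown for a PAC match and UTP20 for a pair of RRPE matches, in capitals, the second on the other strand. UTP7 is at chrV:326037-326086 on the minus strand and UTP20 at chrII:227416-227475 on the plus strand.
UTP7: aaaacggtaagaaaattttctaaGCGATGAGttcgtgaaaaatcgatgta
UTP20: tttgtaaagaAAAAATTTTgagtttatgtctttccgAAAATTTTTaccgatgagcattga

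Genes of the mitochondrial ribosome moved the other way. Of 64 tested mitochondrial ribosomal proteins, 60 fell and 0 rose in mub1, with a median log2 change of -0.43, and both CFW libraries lay below both others for all 64, against 30.8% of all tested genes. In the wild type 33 fell and 0 rose, with a median of -0.26, where 8.70% of all tested genes fell. MRPL13 went from 157 and 143 to 99.6 and 94.9 CPM (-0.65 ± 0.07), MRPL8 from 157 and 150 to 96.0 and 104 CPM (-0.65 ± 0.08), and MRP4 (-0.63 ± 0.08) and MRPL1 (-0.59 ± 0.07) fell likewise. MRPL13 also fell in the wild type (-0.65 ± 0.07), with a difference of -0.01 ± 0.10 between the responses. Of the 64, 32, 54, 41 and 39 fell without single mub1 libraries.

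Respiration and the citric acid cycle were lower as well. Of 41 subunit genes of the respiratory complexes and the ATP synthase 17 fell in mub1 and 0 rose, with a median of -0.30. The share that fell was 41.5%, against 14.0% of all tested genes, and in the wild type 4 fell and 1 rose. SDH3, a membrane subunit of succinate dehydrogenase, went from 373 and 334 to 258 and 234 CPM (-0.55 ± 0.09). Falls in this list numbered 1, 9, 4 and 1 without single mub1 libraries, and without wild-type replicate 1 or 2 with CFW 32. Of 27 genes of the citric acid and glyoxylate cycles 14 fell (51.9%) and 1 rose (3.7%). LSC2, a subunit of succinyl-CoA ligase, fell by 0.74 ± 0.10 and the peroxisomal malate dehydrogenase gene MDH3 by 0.48 ± 0.07. Of the cycle genes 3, 10, 8 and 3 fell without single mub1 libraries.

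Genes of storage carbohydrates fell as well. Of 20 tested glycogen and trehalose genes 10 fell and 0 rose in mub1, and 8 fell in the wild type. GSY1, a glycogen synthase, went from 1707 and 1634 to 868 and 784 CPM (-1.04 ± 0.10), and its paralogue GSY2 fell by 0.79 ± 0.10. PGM2, phosphoglucomutase, went from 2224 and 2141 to 1168 and 1072 CPM (-0.99 ± 0.11). Among 19 hexose transporters and sensors 7 fell (36.8%) and 1 rose (5.26%). HXT4 went from 2651 and 2629 to 1554 and 1217 CPM (-0.96 ± 0.13) in mub1 and fell in the wild type too (-0.96 ± 0.13), and the invertase gene SUC2 fell by 1.02 ± 0.18. In glycolysis and fermentation 6 of 29 genes fell (20.7%) and 3 rose (10.3%), against 14.0% and 13.8% of all tested genes. HXK1, the hexokinase of glucose-limited cells, went from 9176 and 8060 to 4705 and 4271 CPM (-0.97 ± 0.16), and the mitochondrial aldehyde dehydrogenase gene ALD4 from 1214 and 1181 to 626 and 600 CPM (-0.995 ± 0.13). ADH1, the main fermentative alcohol dehydrogenase, was among those that rose (3405 and 4909 against 8446 and 7255 CPM, 0.89 ± 0.19, adjusted p = 0.00907). Its call was lost without replicate 1 of either mub1 group (0.068 without CFW and 0.0648 with CFW). The difference from the wild type, 1.21 ± 0.26 (adjusted p = 0.0478), was lost without each of 5 libraries (0.132 to 0.206), the exceptions being mub1 replicate 2 without CFW and both wild-type libraries with CFW. It was lost too with upper-quartile scaling (0.0504) and among genes of at least 10 CPM (0.0501). Without single mub1 libraries 8, 9, 7 and 8 storage genes, 2, 6, 2 and 2 hexose transporter genes and 6, 6, 6 and 7 glycolytic genes fell.

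Autophagy and vacuolar protease genes fell in mub1 for 15 of 26 tested members (57.7%, against 14.0% of all tested genes) and rose for 2. LAP3, an aminopeptidase, went from 359 and 354 to 226 and 229 CPM (-0.68 ± 0.07), the receptor gene ATG19 from 204 and 196 to 139 and 141 CPM (-0.54 ± 0.06), and the carboxypeptidase gene PRC1 fell by 0.64 ± 0.10. APE1, the vacuolar aminopeptidase that Atg19 carries, fell by 0.63 ± 0.10 in mub1 and by 1.58 ± 0.10 in the wild type, a difference of 0.96 ± 0.14 (adjusted p = 0.0133). That call was lost without wild-type replicate 1 or 2 without CFW, mub1 replicate 1 without CFW or mub1 replicate 2 with CFW (0.0722 to 0.107). Falls numbered 8, 10, 6 and 10 without single mub1 libraries. Of 34 genes controlled by the general stress factors Msn2 and Msn4, 12 fell (35.3%) and 4 rose (11.8%) in mub1. CTT1, cytosolic catalase, rose (0.58 ± 0.14) and fell in the wild type (-0.54 ± 0.14), and SSA3, a stress-induced Hsp70, rose by 0.69 ± 0.09. CTT1 was not called in mub1 without replicate 1 without CFW (0.114) or replicate 2 with CFW (0.0917). Falls in the stress list numbered 6, 7, 6 and 6 without single mub1 libraries. MSN2 did not pass (0.07 ± 0.08), and MSN4 fell by 0.35 ± 0.09 with a call that was lost without any single mub1 library (adjusted p = 0.0893 to 0.129).

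**Figure D3:**
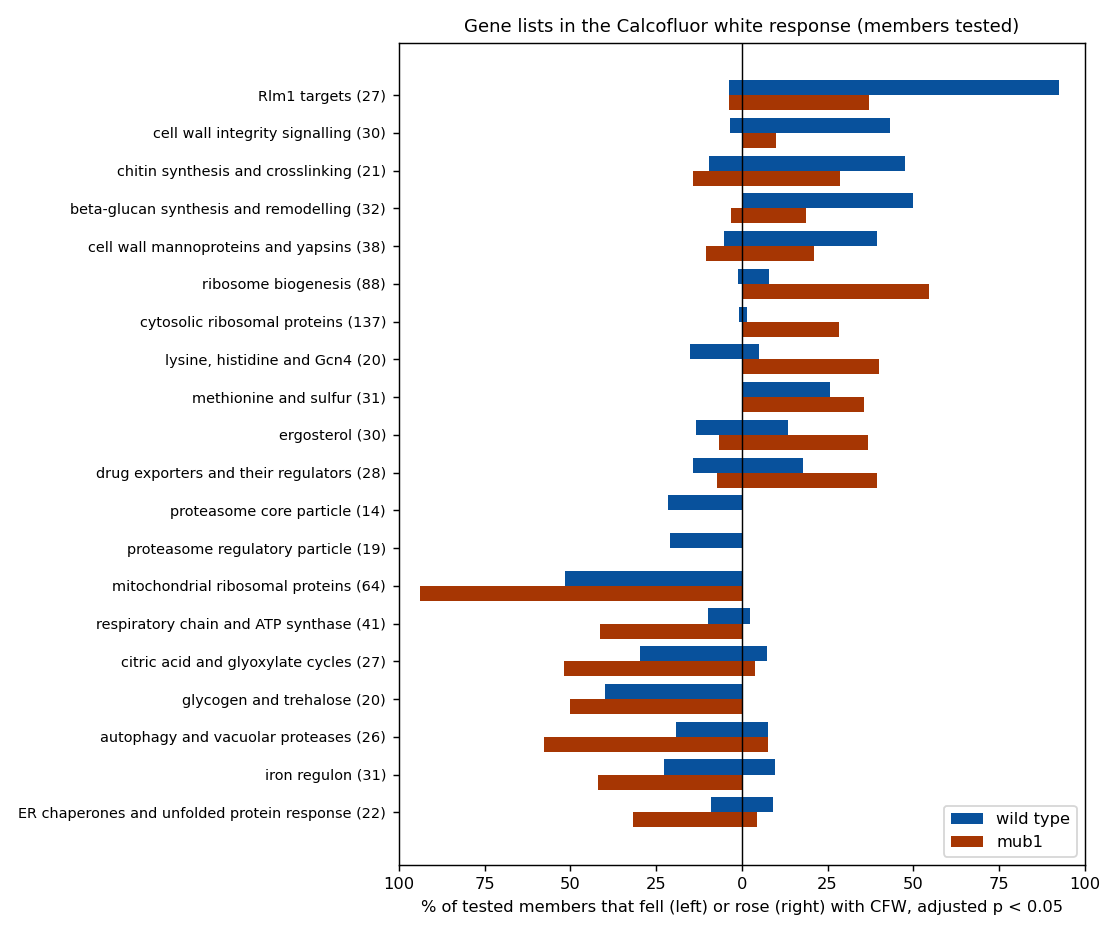
Percent of the tested members of 20 gene lists that rose (right) or fell (left) with CFW at an adjusted p under 0.05, for the wild type and mub1; the number of tested members is in brackets. Rlm1 targets, listed with the wild-type response known, rose in 25 of 27 cases in the wild type and 10 in mub1. Of 88 ribosome biogenesis genes 48 rose in mub1 and 7 in the wild type.

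Amino acid synthesis and uptake changed gene by gene. Of 31 tested genes of methionine and sulfur 11 rose in mub1 (35.5%, against 13.8% of all tested genes) and 0 fell. In the wild type these counts were 8 and 0. The rises in mub1 included STR3, cystathionine beta-lyase (13.8 and 11.98 against 29.1 and 24.6 CPM, 1.03 ± 0.12), and CYS3, cystathionine gamma-lyase (0.46 ± 0.08). Of 20 genes of lysine and histidine synthesis and Gcn4, 8 rose (40.0%) and 0 fell, against 1 and 3 in the wild type. Without single mub1 libraries 5, 8, 3 and 8 and 2, 7, 2 and 3 of these rose. Among 22 amino acid permease genes 5 rose (22.7%) and 4 fell (18.2%), against 13.8% and 14.0% of all tested genes. DIP5, the dicarboxylic amino acid permease, went from 167 and 158 to 90.6 and 95.4 CPM (-0.84 ± 0.07, adjusted p = 0.000225) and was at 123 to 130 CPM throughout in the wild type (a difference of -0.82 ± 0.10, adjusted p = 0.00603, lost without wild-type replicate 2 without CFW at 0.0734). BAP3, a permease of branched-chain amino acids, went from 155 and 155 to 242 and 244 CPM (0.62 ± 0.06). GAP1, the general permease, was at 1164 and 1056 against 727 and 648 CPM in mub1 (-0.72 ± 0.11) and at 15.9 to 19.5 CPM in the wild type. PUT4, the proline permease, was at 91.2 and 75.7 against 59.8 and 59.8 CPM in mub1 (-0.51 ± 0.22, adjusted p = 0.117) and rose in the wild type from 2.65 and 3.42 to 8.78 and 17.6 CPM. For PUT4 the difference of -2.58 ± 0.38 (adjusted p = 0.0181) was lost without either wild-type library without CFW, mub1 replicate 1 without CFW or either mub1 library with CFW (0.0618 to 0.111), and the mub1 change passed without wild-type replicate 1 or 2 with CFW (0.000469 and 0.000611). Permease genes that rose numbered 3, 3, 3 and 4 without single mub1 libraries.

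Ergosterol synthesis, the sterol pathway of the plasma membrane, rose for 11 of 30 tested genes in mub1 and fell for 2. These shares were 36.7% and 6.67%, against 13.8% and 14.0% of all tested genes, and the median was 0.21. ERG11, lanosterol demethylase, went from 491 and 505 to 751 and 750 CPM (0.56 ± 0.09), and ERG1, squalene epoxidase, from 324.9 and 331 to 476 and 480 CPM (0.52 ± 0.08). UPC2, an activator of these genes, rose by 0.57 ± 0.09. Without single mub1 libraries 4, 4, 4 and 7 of the list rose. Genes of mitosis and daughter cells rose for 9 of 25 (36.0%) and fell for 4 (16.0%) in mub1. Among those that rose were SWI5, the factor of early G1 transcription (0.68 ± 0.09), and the mitotic exit gene SPO12 (0.66 ± 0.09). The cytokinesis gene IQG1 rose too (53.5 and 53.0 against 85.7 and 77.0 CPM, 0.58 ± 0.08). Those that rose numbered 5, 7, 6 and 8 without single mub1 libraries.

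In the proteasome, the machine whose genes Rpn4 controls, no gene passed in mub1. Both CFW libraries lay above both others for 78.6% of core and 31.6% of regulatory particle genes, against 40.2% of all tested genes. They lay below both others for 7.14% and 10.5%, against 30.8%. None of the 14 core and 19 regulatory particle genes rose or fell by edgeR's test, and the medians were 0.04 and -0.01, although 1 core gene, PRE6, rose with DESeq2, with upper-quartile scaling and with library totals alone. Those with an unadjusted p under 0.05 numbered 3 in the core and 1 in the regulatory particle, and without wild-type replicate 1 or 2 with CFW, 3 core genes and 1 regulatory gene rose. With only the mub1 libraries 3 core genes rose. In the wild type 3 core and 4 regulatory genes fell, with no difference between genotypes past the test, although it was positive for 14 of 14 core and 18 of 19 regulatory genes, with medians of 0.19 and 0.12. RPN4 was at 379 and 321 CPM without CFW and at 397 and 426 with it (0.21 ± 0.11, adjusted p = 0.187), and passed without wild-type replicate 1 or 2 with CFW (0.0412 and 0.0391). UBR2 was at 57.6 to 61.2 CPM in all 4 mub1 libraries (0.04 ± 0.07), and RAD6 at 57.2 and 58.3 against 71.2 and 65.6 CPM (0.22 ± 0.07, adjusted p = 0.053). PRE6 and RPN12 are shown for the Rpn4 element (PACE), GGTGGCAAA on either strand, here on the other strand in capitals. The element was found within 500 bases of 98 of 5844 genes (1.68%), of 12 of 14 core and 15 of 19 regulatory particle genes, and of 1.1% of the genes that rose and 1.23% of those that fell in mub1. PRE6, a core subunit, was at 291 and 279 against 338 and 326 CPM (0.19 ± 0.07, adjusted p = 0.0615), and RPN12, a lid subunit, at 178 and 172 against 206 and 194 CPM (0.17 ± 0.07, adjusted p = 0.116). PRE6 is at chrXV:255207-255256 and RPN12 at chrVI:252387-252436, both on the plus strand.
PRE6: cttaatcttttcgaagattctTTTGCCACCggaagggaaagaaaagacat
RPN12: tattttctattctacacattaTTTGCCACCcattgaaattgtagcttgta

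Protein folding genes moved in both directions. Of 22 genes of ER chaperones and the unfolded protein response 7 fell (31.8%) and 1 rose (4.55%) in mub1. Over all tested genes 14.0% fell and 13.8% rose. The falls of the list included SIL1, a nucleotide exchange factor of the ER Hsp70 (94.3 and 86.0 against 59.7 and 62.6 CPM, -0.59 ± 0.07), and the prolyl isomerase gene FPR2 (-0.45 ± 0.08). Both had a difference from the wild type past the test (-0.73 ± 0.10 and -0.56 ± 0.11), lost for SIL1 without any of 5 libraries (0.0573 to 0.1) and for FPR2 without any of 6 (0.0926 to 0.168). The wild-type libraries with CFW were not among them in either case, nor was mub1 replicate 2 without CFW in that of SIL1. With upper-quartile scaling the FPR2 difference was lost. HAC1, the transcription factor of that response, did not pass (0.09 ± 0.09), nor did HSF1, that of heat shock (-0.18 ± 0.10). Falls numbered 4, 5, 4 and 5 without single mub1 libraries. Of 20 genes of calcium signalling and calcineurin, which also serve wall stress, 4 rose and 2 fell. CRZ1, the calcineurin-dependent factor, rose by 0.44 ± 0.08 in mub1 and was at -0.12 ± 0.08 in the wild type, and the responses differed by 0.56 ± 0.11 (adjusted p = 0.0401). That difference was lost without any single library other than the wild-type ones with CFW (0.104 to 0.187). CMK1, a calmodulin-dependent kinase, went from 444 and 382 to 252 and 252 CPM (-0.74 ± 0.09), while its relative CMK2 rose by 0.45 ± 0.12, a call lost without any single mub1 library (0.0857 to 0.114). Genes that rose in this list numbered 1, 2, 1 and 1 without single mub1 libraries.

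Set side by side over all 5954 tested genes, the log2 changes of mub1 and of the wild type, which share no library, had a Pearson correlation of 0.34 and a Spearman correlation of 0.40 across genes. Genes are not independent replicates, so no p is given. Of the 107 genes that rose at least 2-fold in the wild type 37 rose and 3 fell in mub1, with a median of 0.35 in mub1 and 1.33 in the wild type. Of the 41 that rose at least 2-fold in mub1 22 rose in the wild type and 0 fell, with a median of 1.19 in mub1 and 0.58 in the wild type. The median is the higher one, in both cases, in the genotype by which the genes were picked. Of the 31 that fell at least 2-fold in mub1 10 fell and 2 rose there. The difference between the responses passed the test for 149 genes (2.50%), 53 higher and 96 lower in mub1. Besides those above, the 8 largest differences in each direction included RMA1, AST1 and YJL213W on the higher side and YCL048W-A on the lower. RMA1, a folate synthetase homologue (11.3 and 11.8 against 22.1 and 27.3 CPM, 1.06 ± 0.14), and AST1 (1.05 ± 0.14) rose in mub1 and did not pass in the wild type (-0.07 ± 0.14 and 0.05 ± 0.14). YJL213W did not pass in mub1 (0.07 ± 0.11) and fell in the wild type (-0.95 ± 0.11). These differences were lost without most single libraries, and the number of genes called was 10 and 9 without wild-type replicates 1 and 2 without CFW, 1779 and 366 without wild-type replicates 1 and 2 with CFW, and 16, 49, 30 and 11 without single mub1 libraries.

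**Figure D4:**
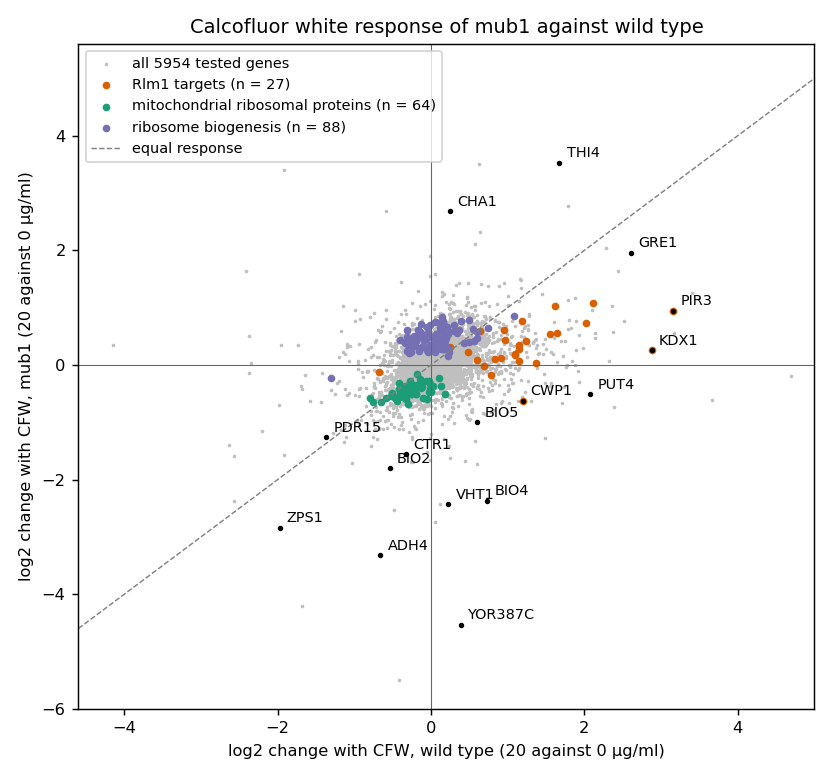
Log2 change with CFW (20 against 0 µg/ml) in mub1 (vertical) against the wild type (horizontal) for the 5954 tested genes, each a point, with 3 gene lists coloured and single genes labelled. Of the 27 Rlm1 targets, listed with the wild-type response known, 25 lie below the dashed line of equal response. VHT1, BIO2, BIO4 and YOR387C lie far lower in mub1 than in the wild type, and mitochondrial ribosomal proteins lie below 0 in mub1 for all 64.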

How the data were processed

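The authors deposited raw whole-number counts per gene. Per the submitters' processing notes, these came from FastQC 0.12.1, HISAT2 2.2.1 and featureCounts 2.0.3 on build R64. Per the labels' protocols, libraries were stranded and polyA-enriched. The strand setting of the counting is not given in the sources used here, so overlapping genes are uncertain. Of 6534 identifiers 5864 matched the RefSeq R64 annotation.

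In edgeR 4.0.16 under R 4.3.3, 1 model with 4 group means was fitted to the 8 libraries (filterByExpr, which kept 5954 genes with 99.9969% of the counts; TMM; robust quasi-likelihood F test; 4 residual degrees of freedom). Benjamini-Hochberg adjustment ran over every tested gene, with a threshold of 0.05, and each SE was derived from F and the log2 change. DESeq2 1.42.0, other scalings and filters, a replicate block and leaving out libraries were the alternatives. On simulated data of CFW in mub1, 74% of genes changed by 0.5 on the log2 scale and 98% of those changed by 1 were recovered. For the difference between genotypes 30% and 90% were recovered. Unchanged genes that were called numbered 10 for CFW in mub1 and 9 for the difference. The simulation gave a gene the same spread in every group, unlike the real libraries, and changed genes drawn at random. A count of 0 allows up to 0.0947 to 0.124 CPM, as far as counting error goes.

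Genes were named by rule: the 12 largest increases and 12 largest decreases among called genes with a mean of at least 10 CPM and no overlap between the media, the 8 largest differences between genotypes in each direction, a list of pathway genes, and from each list the 4 members of smallest p at most. The members, the 48 lists and the tests were chosen with earlier results of these data known. A few genes that the rule names are not reported here.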

Additional observations from a re-analysis of the deposited data

Results flagged for a closer look

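These genes drew attention because their response to CFW differed between mub1 and the wild type by edgeR's test of the difference (adjusted p under 0.05), and each value is the log2 response in mub1 minus that in the wild type. Among genes of biotin supply the differences were VHT1 (-2.65), BIO2 (-1.26), BIO3 (-3.06), BIO4 (-3.10) and BIO5 (-1.60). For genes of zinc, copper and iron supply they were YOR387C (-4.93), VEL1 (-1.30), DPP1 (-0.44), CTR1 (-1.23), TIS11 (-1.46), FTR1 (-1.05) and FRE1 (-0.64). In genes of wall building, of wall repair and of the kinase pathway the values were KDX1 (-2.62), CWP1 (-1.83), SLT2 (-0.82), CHS3 (-0.81), CRH1 (-1.29), YNL058C (-1.01), GFA1 (-1.33), DFG5 (-0.86), SCW11 (-0.51) and EXG1 (-1.57). Of exporters and permeases those with a difference were TPO3 (0.76), PDR12 (1.06), QDR2 (0.66), PDR5 (0.83), DIP5 (-0.82), BAP3 (0.56) and PUT4 (-2.58). For genes of metabolism the differences came to THI4 (1.86), CHA1 (2.43), ALD6 (-0.93), ALD4 (-0.83), ADH1 (1.21), RMA1 (1.14) and CTT1 (1.12). Among genes of folding, calcium signalling and vacuolar transport they were SIL1 (-0.73), FPR2 (-0.56), CRZ1 (0.56), CMK2 (0.87), ATG19 (-0.45) and APE1 (0.96). For the remaining genes the values were PRR2 (-0.89), AST1 (1.002), YJL213W (1.02) and YCL048W-A (-2.38). Of these 46 differences 8 passed under every alternative run (VHT1, BIO3, BIO4, BIO5, YOR387C, CHA1, KDX1 and EXG1), and 7 were lost without 1 to 4 of the 8 single libraries. Another 13 were lost without 5 of them and 18 without 6, among the last BIO2, VEL1, QDR2, BAP3, SCW11, ALD4, ATG19, DPP1 and PRR2. Groups of 2 libraries are too small to test for single libraries that stand apart. Transcripts of LEU2, URA3, MET17 and TRP1 differ between the genotypes as well and cannot be told apart from the deletion, nor strain from genotype, in these differences.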

How the results depend on the processing

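The replicate numbers do not pair the samples by any label. Same-numbered mub1 libraries correlated at 0.168 in their deviations from the group means and the wild-type ones at -0.122. With the replicate block, 702 genes rose and 725 fell in mub1, and the difference between genotypes was called for 92 genes (32 higher, 60 lower). Of the 46 differences named, the block ended 14, among them SLT2, CRZ1, FPR2, ADH1 and PRR2. Upper-quartile scaling ended 9, and library totals and a mean of at least 10 CPM 3 each, with PRR2 and DFG5 in every one of these. With the wild-type CFW numbers crossed, an alternative added after seeing the data, it was called for 416 (168 higher, 248 lower). DESeq2 called 557 differences (228 higher, 329 lower). With only the 4 mub1 libraries 1269 genes rose in mub1.

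Without single libraries the calls in mub1 ran from 531 to 2541, with 229 to 1310 higher and 302 to 1245 lower. For the difference they ran from 9 to 1779, with 1 to 869 higher and 7 to 910 lower. The cause was not tested.

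Direction changed in 5 genes, none of them called in mub1. The log2 change of RLM1 was 0.023 with upper-quartile scaling, 0.010 with library totals and -0.083 to 0.045 without single libraries. That range was -2.33 to 2.21 for MUB1, whose fitted change rests on single counts, -0.031 to 0.17 for YJL213W, -0.054 to 0.099 for CUP9 and -0.025 to 0.11 for GFA1. Of the other gene values under all alternatives 2709 kept their direction and their side of the threshold, 274 lost their call and 70 gained one.

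With 2 libraries per group and 4 residual degrees of freedom, calls of small changes depend on single libraries, and low genes are limited by counting.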

Other observations

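Counts of further lists in mub1 with CFW are given here, to be read against 13.8% of all tested genes that rose and 14.0% that fell. Those of the chaperones (16.0% rose), of the phosphate genes (11.5% rose) and of the mannosylation genes that fell (12.1%) are near these shares. Among 16 tested genes of ribonucleotide reductase and the DNA damage response 8 rose and 2 fell, against 7 and 1 in the wild type. Besides HUG1 they included DUN1, a checkpoint kinase (0.58 ± 0.08), and RNR3, a damage-induced subunit of the reductase (0.58 ± 0.12). Synthesis genes of leucine, isoleucine and valine rose for 5 of 13 and fell for 0. Of 17 arginine genes 7 rose and 2 fell, with PUT2, a dehydrogenase of proline use, at -0.49 ± 0.09. Of 33 protein mannosylation genes 7 rose and 4 fell, of 15 pyrimidine genes 5 rose and 1 fell, and of 21 purine genes 5 rose and 1 fell. Genes under nitrogen catabolite repression fell for 6 of 25 and rose for 1. The list of Yap1 and antioxidant enzymes fell for 7 of 29 and rose for 2, with the peroxidase gene HYR1 at -0.47 ± 0.07. Cytosolic heat shock chaperones rose for 4 of 25 and fell for 0, among them the Hsp90 cochaperone CPR7 (0.60 ± 0.11). PHM8, a nucleotide phosphatase, rose by 1.07 ± 0.17 in the phosphate list, where 3 of 26 rose and 2 fell. Without single mub1 libraries, in the order used above, the genes that rose numbered 2, 5, 2 and 4 in the DNA damage list, 1, 5, 1 and 3 in the arginine list, 1, 4, 1 and 2 in mannosylation, 1, 3, 7 and 2 among the chaperones, 0, 3, 1 and 1 in the pyrimidine list, 2, 4, 2 and 2 in the purine list, 1, 3, 2 and 3 in the leucine list and 1, 3, 2 and 1 in the phosphate list. Falls numbered 1, 5, 2 and 3 under nitrogen catabolite repression and 2, 4, 3 and 3 in the Yap1 list.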
